A study of Mus musculus with 6 samples.

Results

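The genes described here encode the cytosolic chaperonin CCT, also called TRiC, and the phosducin-like cochaperones that work with it. They were chosen by symbol: Tcp1, Cct2, Cct3, Cct4, Cct5, Cct6a, Cct7 and Cct8 for the chaperonin, and Pdcl and Pdcl3 for the cochaperones. All probes annotated to a single one of these symbols were taken, which gave 28 probes for 10 genes, out of 45037 probes and 18193 genes on the array. Of the 28 probes, 25 belong to the 8 CCT subunit genes and 3 to the phosducin-like genes. The samples were 3 Gb5-deficient mice (KO mice 4, 5 and 6) and 3 wild-type mice (WT mice 1, 2 and 3), with 1 single-colour Affymetrix array per mouse; the labelled source is brain tissue, and the series title names the cerebellum. Gb5 is the G protein beta subunit encoded by Gnb5. The labels describe littermates matched for age and sex, but give no age, sex, litter or strain for a single mouse and no design of the inactivated allele. The question put to these genes was whether transcripts of the machinery that folds Gb5 differ when Gb5 itself is missing.

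CCT is built of stacked rings in which each subunit has its own fixed place, and it folds actin, tubulin and many proteins with beta-propeller domains, among them the G protein beta subunits. Pdcl, also known as PhLP1, binds the nascent beta subunit on CCT and helps to release it for assembly with a gamma subunit or, in the case of Gb5, with an RGS protein of the R7 family. Pdcl3, also known as PhLP2A, binds CCT too, but is better known for its part in actin and tubulin folding and as a chaperone of a vascular growth factor receptor. In bulk tissue such as this, fewer cells of a type and less RNA per cell cannot be told apart.

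The Gnb5 signal separated the genotypes in every mouse. Its representative probe, the brightest of the gene, read 3.65, 3.36 and 2.96 (log2 signal) in KO mice 4, 5 and 6, against 8.80, 8.51 and 8.70 in WT mice 1, 2 and 3. Array medians lay between 6.48 and 6.57 in KO mice and between 6.49 and 6.54 in WT mice, and no 2 arrays held identical values. Of 17 listed markers of Purkinje cells, granule cells and Bergmann glia, 15 had a single-gene probe above the filter on low signal. KO mouse 6 stood apart. It read 11.80 for the Y-linked gene Eif2s3y, against 3.43 and 3.19 in KO mice 4 and 5 and 3.27 to 3.39 in WT mice, which goes against the labelled matching for sex, and 8.22 for Xist, against 11.30 and 11.44 in KO mice 4 and 5 and 11.17 to 11.64 in WT mice. Its control probes also differed most between the 3′ and 5′ ends of a transcript: for Gapdh the difference was 1.14, 1.07 and 1.58 in KO mice 4, 5 and 6, against 1.03, 1.04 and 1.03 in WT mice 1, 2 and 3.

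No gene of the CCT chaperonin or of its phosducin-like partners passed the test between Gb5-deficient and wild-type mice. All 10 genes were tested, and limma adjusted p lay between 0.606 and 0.788; 0.0355% of the 14067 genes tested passed an adjusted p of 0.05. None of the 10 had an unadjusted p under 0.05 either, against 8.57% of all genes tested. The KO and WT arrays overlapped in all 10 genes, while all KO arrays lay above all WT arrays in 10.1% of tested genes and below them in 4.82%. The values showed a small common offset: the mean of KO mice was above that of WT mice in 8 of 8 CCT subunit genes, by 0.05 to 0.21 on the log2 scale. KO means were above WT means in 56.7% of all genes tested. Among the 3058 genes at least as bright as the dimmest CCT subunit, a limit chosen after the values were seen, the share was 41.4%. The median difference was 0.08 for the CCT subunits, 0.03 for all genes tested and -0.02 for those bright genes.

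**Figure D1:**
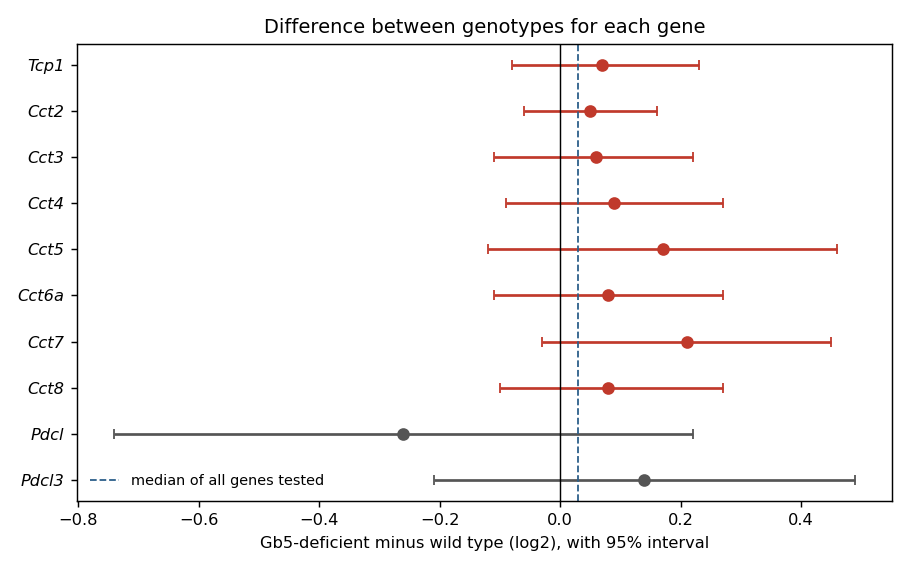
Difference between Gb5-deficient and wild-type mice for each of the 10 genes on the log2 scale (x axis), as the limma estimate with its 95% interval (3 mice in each genotype). All 10 intervals hold 0; the 8 CCT subunits (red) lie between 0.05 and 0.21, Pdcl at -0.26 and Pdcl3 at 0.14 (grey), and the dashed line marks the median of all genes tested at 0.03.

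The intervals bound how far the subunit transcripts can have moved. They were narrowest for Cct2, from -0.06 to 0.16, and widest for Cct5, from -0.12 to 0.46. Over the representative probes of the 8 subunits, the interval bounds ran from 0.92 to 1.38 as a fold of KO over WT signal. Some dimmer probes of the same genes reached lower when every probe was tested. Their log2 intervals were -0.80 to 0.11 for Cct3 probe 1439679_at and -0.51 to 0.12 for Cct4 probe 1415868_at. A p that misses the threshold does not show that the genotypes have the same level.

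No subunit gene passed, and a link between upstream sequence and the differences was not tested. The windows upstream of the subunit genes are shown for Cct7 and Cct5, with the largest differences, and for Cct2, with the smallest. Each is the 250 bases before the annotated start in RefSeq (build GRCm38.p6), 5′ to 3′ on the strand of the gene, at chr6:85451255-85451504 (plus strand) for Cct7, chr15:31601847-31602096 (minus strand) for Cct5 and chr10:117063853-117064102 (minus strand) for Cct2. Capitals mark matches to a CCAAT box (CCAAT), an ETS site (CCGGAAG) or a GC box (GGGCGG), each searched on both strands; no match overlapped another.
Cct7: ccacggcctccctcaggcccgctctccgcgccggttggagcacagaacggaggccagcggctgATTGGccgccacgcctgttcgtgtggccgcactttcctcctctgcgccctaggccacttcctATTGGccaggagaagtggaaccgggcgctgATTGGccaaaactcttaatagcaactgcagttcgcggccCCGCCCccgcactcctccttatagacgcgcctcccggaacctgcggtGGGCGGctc
Cct5: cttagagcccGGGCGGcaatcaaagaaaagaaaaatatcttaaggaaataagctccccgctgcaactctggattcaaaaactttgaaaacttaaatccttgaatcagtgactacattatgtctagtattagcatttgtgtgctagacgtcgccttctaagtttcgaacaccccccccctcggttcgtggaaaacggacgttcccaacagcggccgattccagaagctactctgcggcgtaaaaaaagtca
Cct2: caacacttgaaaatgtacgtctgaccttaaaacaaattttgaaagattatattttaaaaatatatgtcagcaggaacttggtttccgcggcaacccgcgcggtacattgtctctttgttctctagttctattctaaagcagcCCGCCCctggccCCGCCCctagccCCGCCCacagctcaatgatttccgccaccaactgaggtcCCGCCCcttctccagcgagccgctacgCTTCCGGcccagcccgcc
The Cct7 window holds 3 CCAAT and 2 GC boxes, the Cct5 window 1 GC box alone, and the Cct2 window 4 GC boxes and 1 ETS site. The table held windows for 8 of the 10 genes and none for Cct4 and Pdcl3. A GC box was found in all 7 CCT subunit genes with a window, and in 32.9% of the 27025 genes with a window. A CCAAT box was found in Cct3, Cct6a, Cct7, Tcp1 and Pdcl (whose window lies inside the annotated gene) and in 34.5% of all windows, and an ETS site in Cct2 and Cct8 and in 7.05%. The letters GAANNTTC were in none of the 8 windows and in 6.78% of all. They are only a single arrangement of a pair of heat shock units. No other arrangement was searched, so a lack of such pairs in these windows is not shown. A match is only a run of letters and was not measured as a binding site.

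Cct7, which encodes the eta subunit, had the largest difference of the chaperonin genes. Its representative probe read 11.88, 12.18 and 12.21 in KO mice 4, 5 and 6, against 11.72, 11.95 and 11.97 in WT mice 1, 2 and 3. KO mice 5 and 6 were above every WT mouse, while KO mouse 4 lay between WT mouse 1 and the other WT mice. The means were 12.09 ± 0.18 in KO and 11.88 ± 0.14 in WT (SD, n = 3 each), a difference of 0.21 (SE 0.10; 95% interval from -0.03 to 0.45; limma adjusted p = 0.606). This was the smallest unadjusted p of the group, at 0.0795 in the limma fit. The difference was 0.13 without WT mouse 1 and 0.31 without KO mouse 4.

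Cct5 encodes the epsilon subunit, which is mutated in a human hereditary sensory neuropathy. It read 10.78, 10.77 and 11.15 in KO mice 4, 5 and 6, against 10.55, 10.81 and 10.82 in WT mice 1, 2 and 3. KO mouse 6 was the highest and WT mouse 1 the lowest, and the 4 remaining arrays lay within 0.05 of each other. The means were 10.90 ± 0.22 in KO and 10.73 ± 0.16 in WT (SD, n = 3 each), a difference of 0.17 (SE 0.13; limma adjusted p = 0.663). Without KO mouse 6 the difference was 0.05, and without WT mouse 1 it was 0.08.

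Tcp1 encodes the alpha subunit, the founding member of the family. It read 12.11, 12.29 and 12.28 in KO mice 4, 5 and 6, against 12.08, 12.19 and 12.18 in WT mice 1, 2 and 3. As for Cct7, KO mice 5 and 6 were above all WT mice and KO mouse 4 was not. The difference was 0.07 (SE 0.07; limma adjusted p = 0.715).

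Cct8 encodes the theta subunit. It read 11.11, 11.26 and 11.12 in KO mice 4, 5 and 6, against 10.99, 11.10 and 11.14 in WT mice 1, 2 and 3. Only KO mouse 5 was above all WT mice, and the difference was 0.08 (SE 0.08; limma adjusted p = 0.722).

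Cct2 encodes the beta subunit, and its representative probe was the steadiest of those of the 10 genes. It read 12.68, 12.69 and 12.72 in KO mice 4, 5 and 6, against 12.61, 12.64 and 12.69 in WT mice 1, 2 and 3. The KO arrays sat at the upper end of the WT range, with a difference of 0.05 (SE 0.05; limma adjusted p = 0.715). Array SDs of this probe were 0.02 in KO and 0.04 in WT. They were larger on the other Cct2 probes, at 0.11 in both genotypes for 1416037_a_at. For 1433534_a_at they were 0.25 in KO and 0.10 in WT.

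Cct3, Cct4 and Cct6a, for the gamma, delta and zeta subunits, had KO mouse 6 as the highest array. KO mouse 5 was the lowest of their KO arrays. The same held for Cct5, though its KO mice 4 and 5 were close, at 10.78 and 10.77. Cct3 read 12.81, 12.69 and 12.93 in KO mice 4, 5 and 6, against 12.67, 12.85 and 12.74 in WT mice 1, 2 and 3. Cct4 read 12.38, 12.30 and 12.57 in KO mice 4, 5 and 6, against 12.26, 12.42 and 12.30 in WT mice 1, 2 and 3. For both, WT mouse 2 was above KO mice 4 and 5. Cct6a read 11.51, 11.34 and 11.63 in KO mice 4, 5 and 6, against 11.44, 11.40 and 11.41 in WT mice 1, 2 and 3. Its KO arrays spread on both sides of a tight WT group, with SDs of 0.15 in KO and 0.02 in WT. The differences were 0.06 for Cct3, 0.09 for Cct4 and 0.08 for Cct6a, each with an SE of 0.07 to 0.08 and a limma adjusted p of 0.699 to 0.788.

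**Figure D2:**
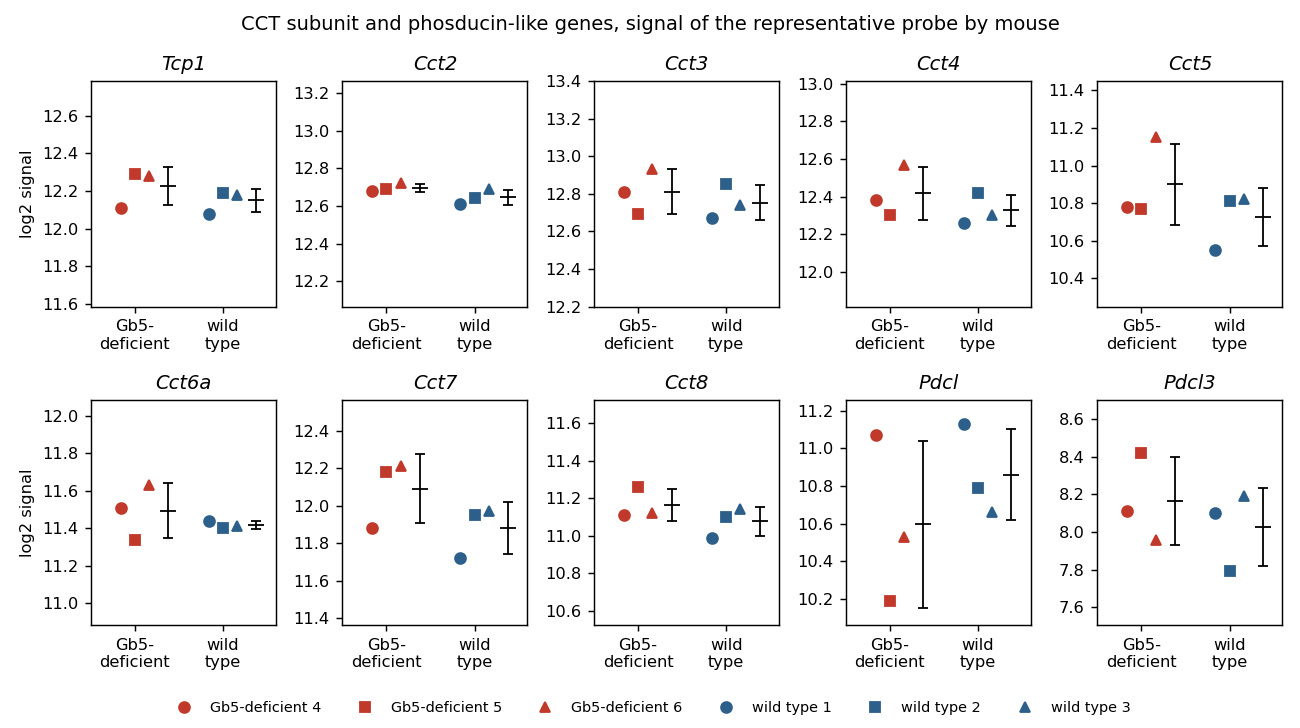
Log2 signal of the representative probe of each gene (y axis, each panel spanning the same range of 1.2 log2 units) in each mouse, with Gb5-deficient mice in red on the left and wild-type mice in blue on the right; black bars give the mean and SD (n = 3). The genotypes overlap in every panel, KO mouse 6 (red triangle) is the highest array in 6 of the 8 CCT subunits, and WT mouse 1 (blue circle) the lowest in 7 of 8.

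The common offset lay mainly in 2 arrays. KO mouse 6 was the highest of the 6 arrays in 6 of the 8 CCT subunit genes and WT mouse 1 the lowest in 7 of 8, while KO mouse 6 was the highest in 23.4% and WT mouse 1 the lowest in 31.9% of all genes tested. With each gene set to its own mean over the 6 arrays, the median CCT subunit stood at 0.16 in KO mouse 6 and -0.11 in WT mouse 1, and within 0.01 of 0 in the other 4 arrays. Over all genes tested the same median was 0.01 in KO mouse 6 and -0.04 in WT mouse 1. A high KO mouse 6 and a low WT mouse 1 were not particular to CCT among the gene lists described below. In KO mouse 6 and WT mouse 1 the medians were 0.14 and -0.20 for beta-propeller clients outside the G proteins. They were 0.14 and -0.16 for R7 RGS proteins and their partners, but -0.10 and 0.06 for prefoldin. Unlike CCT, the first 2 of these lists moved in other arrays too. KO mouse 4 was at -0.12 and WT mouse 2 at 0.10 for the beta-propeller clients. KO mouse 5 was at 0.13 and WT mouse 2 at -0.08 for the R7 list. Left out in turn, these arrays moved the CCT median difference to 0.04 without KO mouse 6 and 0.05 without WT mouse 1, against medians of 0.03 and 0.01 over all genes in the same fits. Leaving out any of the other arrays gave CCT medians of 0.08 to 0.13. Without KO mouse 6, 7 of the 8 subunits still had a higher KO mean, and Cct3 read -0.00. KO mouse 6 is also the array with the largest 3′ to 5′ differences: for the beta-actin control it was 2.84, 2.95 and 3.18 in KO mice 4, 5 and 6, against 2.76, 2.84 and 2.76 in WT mice 1, 2 and 3. For the spike-in control dap, which is not RNA of the mouse, it was 4.63, 4.08 and 5.34 in KO mice, against 4.30, 4.62 and 4.39 in WT mice. WT mouse 1 had the highest choroid plexus signal: the mean of 4 markers was 6.48, 7.95 and 8.32 in KO mice 4, 5 and 6, against 8.86, 7.42 and 7.28 in WT mice 1, 2 and 3. Blood markers did not share a direction. Their mean over 5 genes was 7.97, 7.83 and 8.24 in KO mice 4, 5 and 6, against 8.57, 8.95 and 8.81 in WT mice 1, 2 and 3. The red cell genes Alas2, Slc4a1 and Hbb-b2 were lower in all KO mice, by differences of -2.08, -1.90 and -0.60 that did not pass (limma adjusted p from 0.247 to 0.249). The blood markers S100a8 and S100a9 went the other way, both at 0.37, without passing. The part of RNA quality, labelling, sex, choroid plexus or blood in the CCT values was not tested.

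**Figure D3:**
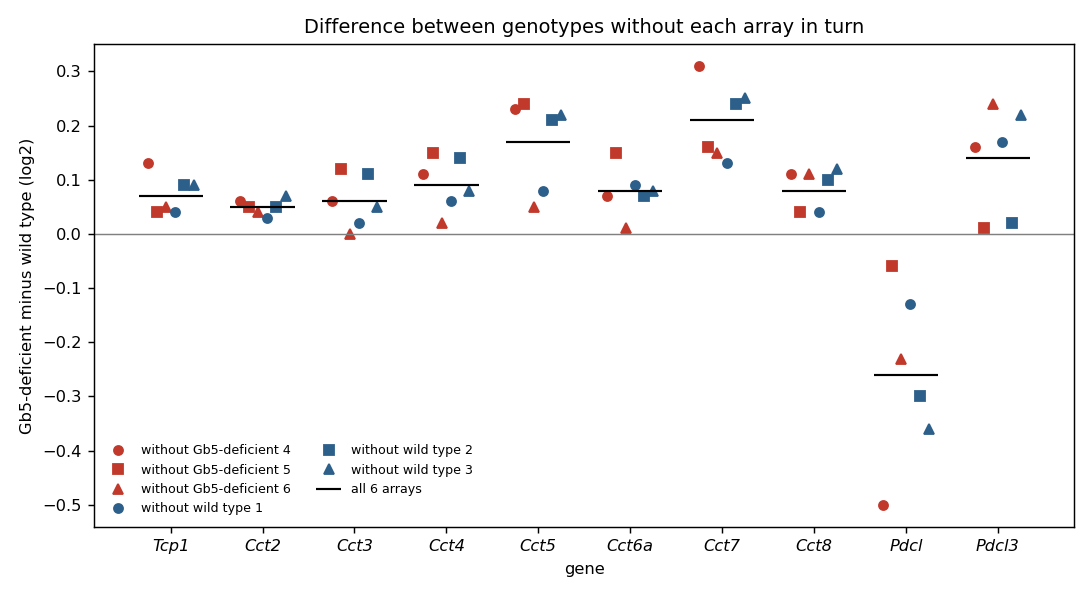
Difference between Gb5-deficient and wild-type mice (log2, y axis) for each gene with all 6 arrays (black lines) and with each array left out in turn (red symbols for KO arrays, blue for WT arrays). For Cct3, Cct4, Cct5 and Cct6a the value without KO mouse 6 (red triangle) lies between -0.00 and 0.05, and Pdcl runs from -0.50 without KO mouse 4 to -0.06 without KO mouse 5.

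Different probes of a subunit did not always move together across the mice. Of the 28 probes, 24 had a mean above the filter value of 4.70, and the 4 under it belonged to Cct3, Cct4 (2 probes) and Cct8. No probe passed when all 45037 probes were tested, with limma adjusted p from 0.679 to 0.992, and 0.0222% of all probes did. The KO mean was higher in 18 of the 25 CCT probes and lower in 7. For Cct2, the probe 1433534_a_at read 11.58, 11.08 and 11.38 in KO mice 4, 5 and 6, against 11.50, 11.51 and 11.32 in WT mice 1, 2 and 3. The probe 1416037_a_at of the same gene read 11.70, 11.91 and 11.82 in KO mice, against 11.70, 11.63 and 11.85 in WT mice. KO mouse 5 was thus the lowest array on one Cct2 probe and the highest on the other, and the genotype differences were -0.10 and 0.08. For Cct4, the 3 probes brighter than 11 had differences of 0.09, 0.10 and 0.09, while 1415868_at read 8.70, 9.05 and 8.68 in KO mice 4, 5 and 6, against 9.04, 8.82 and 9.16 in WT mice 1, 2 and 3. KO mouse 6, the highest array on the bright Cct4 probes, was the lowest on that one, whose difference was -0.20 (SE 0.14; limma adjusted p = 0.736). Cct3 showed the same split: 3 bright probes had differences of 0.06, 0.07 and 0.13, while 1439679_at read 5.88, 5.86 and 5.45 in KO mice 4, 5 and 6, against 6.42, 5.73 and 6.08 in WT mice 1, 2 and 3. On that dim probe WT mouse 1 was the highest and KO mouse 6 the lowest, the reverse of the bright probes, with a difference of -0.35 (limma adjusted p = 0.702). KO mouse 6 was also lowest on Cct4 probe 1430034_at (-0.13) and Cct3 probes 1449645_s_at (-0.04) and 1451915_at (-0.12). Other dimmer probes did not reverse: KO mouse 6 was above the mean on Cct3 probe 1426067_x_at (0.01). It was highest on Cct4 probes 1456572_x_at (0.09) and 1456082_x_at (0.03), both under the filter. The Cct7 probe 1415817_s_at gave 0.08 and the Cct6a probe 1423517_at 0.03, both smaller than the representative probe of the gene. Probes whose names end in s_at or x_at may also bind transcripts of related sequence, so the Cct2 and Cct4 representative probes are less certain than those ending in a_at or at. The position of the probes along the transcripts was not used here.

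**Figure D4:**
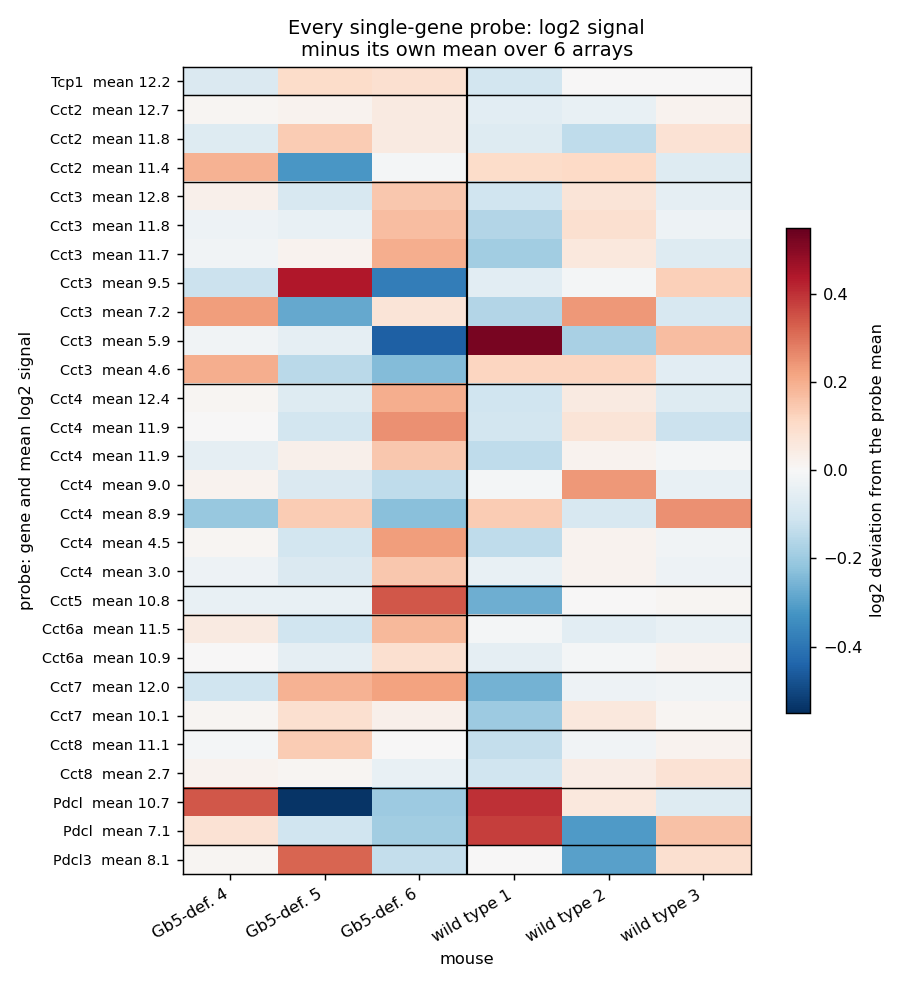
Log2 signal of all 28 probes (rows, grouped by gene and labelled with their mean log2 signal) in each mouse (columns, Gb5-deficient on the left), drawn as the deviation from the probe's own mean over the 6 arrays. KO mouse 6 is above the mean on the bright Cct3 and Cct4 probes and below it on the Cct4 probe of mean 8.9 and the Cct3 probes of mean 9.5 and 5.9.

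Pdcl, the cochaperone of G beta folding, had the widest spread of the 10 genes and the only lower KO mean. Its representative probe read 11.07, 10.19 and 10.53 in KO mice 4, 5 and 6, against 11.13, 10.79 and 10.66 in WT mice 1, 2 and 3. KO mice 5 and 6 lay below all WT mice, and KO mouse 4 lay above WT mice 2 and 3. The means were 10.59 ± 0.44 in KO and 10.86 ± 0.24 in WT (SD, n = 3 each), a difference of -0.26 (SE 0.21; 95% interval from -0.74 to 0.22; limma adjusted p = 0.684). As a fold of KO over WT signal the interval ran from 0.60 to 1.16. The value was -0.50 without KO mouse 4, -0.06 without KO mouse 5 and -0.13 without WT mouse 1 or with array weights. The second Pdcl probe, 1423599_a_at, read 7.19, 6.99 and 6.92 in KO mice 4, 5 and 6, against 7.48, 6.79 and 7.26 in WT mice 1, 2 and 3. Its KO arrays all lay inside the WT range, and its difference was -0.14 (SE 0.18; limma adjusted p = 0.847).

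Markers of several cerebellar cell types varied between the mice beside Pdcl. All 6 listed granule cell markers were measured, and their mean signal was 12.42, 12.03 and 12.28 in KO mice 4, 5 and 6, against 12.39, 12.20 and 12.18 in WT mice 1, 2 and 3. The mean of the 4 measured Purkinje cell markers was 12.59, 12.30 and 12.38 in KO mice 4, 5 and 6, against 12.55, 12.42 and 12.37 in WT mice 1, 2 and 3. The 5 markers of Bergmann glia and astrocytes averaged 12.64, 12.39 and 12.62 in KO mice 4, 5 and 6, against 12.58, 12.53 and 12.52 in WT mice 1, 2 and 3. All 3 list means were highest in KO mouse 4 and lowest in KO mouse 5, but not all of their genes were. Of the Purkinje cell markers, Calb1 and Car8 were lowest in KO mouse 5, and Pcp2 and Pvalb in WT mouse 2. Of the glial markers, Slc1a3 and Gfap were lowest in KO mouse 5, Gdf10 in WT mouse 2, and Aqp4 and Aldoc in KO mouse 6. Single markers, singled out after their values were seen, differed in how far they followed Pdcl. Gabra6, a GABA-A receptor subunit typical of granule cells, read 12.83, 12.06 and 12.47 in KO mice 4, 5 and 6, against 12.85, 12.63 and 12.42 in WT mice 1, 2 and 3. The Purkinje cell marker Car8 read 11.82, 11.05 and 11.46 in KO mice 4, 5 and 6, against 11.79, 11.59 and 11.33 in WT mice 1, 2 and 3. Both were lowest in KO mouse 5 and had WT mouse 1 and KO mouse 4 as their highest arrays, as Pdcl did. The granule cell markers Neurod1, Cbln3 and Zic1 were also lowest in KO mouse 5, while Cbln1 and Fat2 were lowest in WT mouse 2. Cbln1 had a difference of 0.01, and Fat2, at 0.35, was higher in all KO mice than in all WT mice without passing (limma adjusted p = 0.574). The part of cell composition in the Pdcl values was not tested.

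Pdcl3 did not follow Pdcl. Its only probe read 8.11, 8.42 and 7.96 in KO mice 4, 5 and 6, against 8.10, 7.79 and 8.19 in WT mice 1, 2 and 3. KO mouse 5, the lowest array for Pdcl, was the highest for Pdcl3, and KO mouse 6 lay inside the WT range. The means were 8.16 ± 0.23 in KO and 8.02 ± 0.21 in WT (SD, n = 3 each), a difference of 0.14 (SE 0.15; 95% interval from -0.21 to 0.49; limma adjusted p = 0.76). It was 0.01 without KO mouse 5 or with array weights, 0.02 without WT mouse 2 and 0.24 without KO mouse 6.

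The genes around CCT in the folding of G beta, actin and tubulin were taken as 10 lists of 66 genes, of which 57 were tested, 5 were under the filter and 4 had no single-gene probe. Gnb5 was lower in KO mice, with a log2 difference of -5.35 (limma adjusted p = 4.33e-06). Its KO signals lay under the filter value of 4.70, so that it was tested only through its WT signal and -5.35 is not an exact fold; with the mean of its probes the difference was -2.99. None of the other 56 passed, and 5 of them, or 8.93%, had an unadjusted p under 0.05, against 8.57% of all genes tested. Among other phosducin relatives only Txndc9, which binds CCT and was at -0.06, was above the filter; Pdc and Pdcl2 were not. Prefoldin hands unfolded actin and tubulin to CCT. Its 6 subunits had a median difference of -0.00 and ran from -0.15 for Vbp1 to 0.12 for Pfdn4. Tubulin cofactors act after CCT on tubulin; 6 of the 7 had higher KO means, with a median of 0.09. The exception was Tbcel, a tubulin-destabilising relative, which read 9.40, 9.42 and 9.35 in KO mice 4, 5 and 6, against 9.68, 9.59 and 9.56 in WT mice 1, 2 and 3. Its groups did not overlap, but the difference of -0.22 did not pass (limma adjusted p = 0.574). Tbcc was at 0.15 and Tbce at 0.14. For both, all KO arrays lay above all WT arrays, as in 10.1% of tested genes, without passing. Other chaperonins and chaperonin-like genes had a median of -0.01 over 5 measured genes, with Mkks at -0.13 and Bbs10 at 0.08, both of which act in assembly of the ciliary BBSome complex.

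Clients of the chaperonin and partners of Gb5 gave no passing value besides Gnb5. The other G beta genes Gnb1, Gnb2, Gnb3 and Gnb4 had differences of -0.02, 0.22, 0.14 and -0.02, and none passed. The R7 family RGS proteins that pair with Gb5, listed with their membrane partners, had a median of 0.21 over 6 measured genes, with Rgs11 at 0.54 (limma adjusted p = 0.553) and Rgs6 at 0.36 (limma adjusted p = 0.607). That median was 0.09 with a filter at the 50th percentile and 0.12 without KO mouse 5, where Rgs6 was at 0.16. KO means were higher in 5 of the 6, with Rgs7bp at -0.19. All KO arrays lay above all WT arrays for Rgs11 and Rgs7 (0.26), as in 10.1% of tested genes, and neither passed. The mean signal of the list was 8.11, 8.24 and 8.22 in KO mice 4, 5 and 6, against 7.95, 8.01 and 8.04 in WT mice 1, 2 and 3. Beta-propeller clients outside the G proteins had a median of 0.10 over 4 genes, with the mitotic regulator Cdc20 at 0.25 and the mTOR complex subunit Mlst8 at 0.19. Without WT mouse 1 the median was -0.00 and Cdc20 was at 0.04, and without KO mouse 6 Cdc20 was at 0.08. Actin and tubulin genes had a median of 0.01 over 11 measured genes, with the neuronal tubulin Tubb3 at 0.28 and Tubb4b at 0.14. Chaperones of other G protein subunits had a median of 0.05 over 3 genes. The G alpha chaperone Ric8b was at 0.27 (limma adjusted p = 0.574) and Dnajc14 at -0.10. With the mean of a gene's probes Ric8b was at 0.08. For Ric8b and Mlst8, too, all KO arrays lay above all WT arrays without passing.

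Cytosolic heat shock genes had higher KO means in 3 of 9 measured genes, against 56.7% of all genes tested, with a median of -0.01 (-0.08 without KO mouse 6). Those 3, Hspb1, Stip1 and Bag3, were dimmer than the bright genes above, of which 41.4% had higher KO means. Hspa8, Hsp90aa1, Hsph1, Dnaja1 and Dnajb1 belonged to the bright genes, and all had lower KO means. Hsph1, a nucleotide exchange factor of Hsp70, read 12.75, 12.63 and 12.74 in KO mice 4, 5 and 6, against 12.85, 12.85 and 12.86 in WT mice 1, 2 and 3. Its KO arrays were all below its WT arrays, with a difference of -0.15 (SE 0.05), and it did not pass (limma adjusted p = 0.553). KO arrays lay all below WT arrays in 4.82% of tested genes. Bag3, a cochaperone of Hsp70, was at 0.11.

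The mean profile of the 8 CCT subunits over the 6 arrays, each gene standardised first, was most closely matched by Impdh1, Bloc1s5, Ankrd24, Limd2 and Ints9, with Pearson's r of 0.998, 0.997, 0.997, 0.996 and 0.996 over 6 arrays. These values are descriptive, since the genes share the same 6 arrays, and 947 of 14057 other genes (6.74%) had an r above 0.9. Their own differences were 0.32, 0.14, 0.17, 0.32 and 0.23, and none passed (limma adjusted p from 0.607 to 0.652). Among the 28 pairs of CCT subunits, r over the 6 arrays ran from -0.33 to 0.98 with a median of 0.66, and 26 pairs were above 0.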

How the data were processed

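Total RNA of each mouse was hybridised as biotinylated cRNA, per the labels' protocols. Probe signals were deposited by the authors on a log2 scale; the submitters' processing notes name RMA and Partek without a version. RMA includes quantile normalization, which removes most of a shift shared by all transcripts; the array medians still differed slightly. Scanner files, detection calls and scan dates were not used here. Groups came from the labelled genotype and columns were matched by sample name. Gene symbols are the current RefSeq ones for 34741 of 34945 single-gene probes, looked up by Entrez identifier, and the annotation's own for the rest. The probe of highest mean stood for its gene, and genes were tested if that mean exceeded the 30th percentile over all probes (log2 4.70), which 14067 did.

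KO minus WT was tested with limma 3.58.1 in R 4.3.3 (linear model, empirical Bayes with an intensity trend, two-sided, Benjamini-Hochberg over all 14067 genes, threshold 0.05; SE and 95% intervals from this fit), after a check on simulated data. Every probe was also tested, without a filter, over 45037 probes. The number of arrays limits the precision, and the design text calls the mice biological replicates. Lists are described by counts and medians only. Alternatives were other filters, normalizations, variance models, array weights, probe choices, an adjusted p of 0.1 and each array left out. Members and lists were chosen with earlier results of these data known. Named were all members, the passing genes of each list or otherwise up to 2 with the largest change, and the 5 genes most like the CCT profile; others were named after their values were seen.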

Additional observations from a re-analysis of the deposited data

How the results depend on the processing

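Each of the 10 genes was recomputed under 15 alternatives. Those that change only the filter, the variance model or the set of probes tested keep a member's difference. Their agreement in direction was therefore fixed in advance. With these included, the direction and the side of the threshold were those of the reported value in 148 of the 150 cases. The smallest adjusted p (limma) was 0.246. Both exceptions were Cct3, at -0.03 with the mean of a gene's probes and -0.00 without KO mouse 6 (from -0.00 to 0.12 with 1 array left out). Sizes moved more: with the mean of a gene's probes Cct2 and Cct4 were both at 0.01 and Cct8 at 0.04, and without KO mouse 6 Cct4 was at 0.02 and Cct6a at 0.01. No member passed in any alternative, at an adjusted p of 0.1 or with every probe tested. The median of the CCT subunits was 0.04 with the mean of a gene's probes, where the median of all genes was 0.03 and 58.4% had higher KO means. It was 0.06 with array medians subtracted, where the median of all genes was 0.00 and 50.1% had higher KO means. The count of all genes passing was 5, against 3 with a filter at the 50th percentile, 8 without a filter and 10 with every probe on its own, and from 2 to 10 with 1 array left out. Signs changed with the mean of a gene's probes for Txndc9 (0.01) and Dnajc14 (0.02), with array weights for Bbs10 (-0.00) and Pfdn4 (-0.04), and with array medians subtracted or a second quantile normalization for Cct3 probe 1426067_x_at (-0.02 in both). With 1 array left out, values on both sides of 0 were found for Txndc9 (-0.12 to 0.02), Bbs10 (-0.01 to 0.17), Pfdn4 (-0.08 to 0.29), the Pdcl probe 1423599_a_at (-0.34 to 0.01), the Cct2 probe 1433534_a_at (-0.21 to 0.04), the Cct6a probe 1423517_at (-0.01 to 0.06) and the Cct3 probes 1416024_x_at (-0.00 to 0.13), 1449645_s_at (-0.27 to 0.14) and 1426067_x_at (-0.10 to 0.15). The cause was not tested. No paired analysis was possible because the genotypes share no replicate number. With 3 arrays in each genotype, the printed intervals give the differences that remain compatible with the values of a gene or probe. They are not limits of detection, and the smallest detectable difference was not computed.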
